A study of Homo sapiens with 4 samples.

Results

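Mucins are the main secreted and surface glycoproteins of mucous epithelium, and trefoil factors are small secreted peptides. Mucins and trefoil factors were taken as the genes MUC1, MUC4, MUC5AC, MUC5B, MUC13, MUC16, MUC20, TFF1, TFF2 and TFF3. A gene was measured where the platform annotation gave a row exactly 1 symbol equal to its name. Of these 10 genes, 9 had such a row, each with 1 row, out of 18377 genes named in this way on the arrays. MUC5AC, a secreted gel-forming mucin, had none and was not analysed here. The samples were HuCCT1 cells, a human cholangiocarcinoma (bile duct cancer) line, given GEM and VPA together (GEM_VPA), VPA alone, GEM alone, or no drug (untreated), with 1 array each. VPA is read as valproic acid, which inhibits histone deacetylases, and GEM as gemcitabine, a nucleoside analogue that blocks DNA synthesis. All groups share the 1 cell line, and no dose or exposure time was used here, since the labels state neither.

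Membrane mucins such as MUC1, MUC4, MUC13, MUC16 and MUC20 are anchored in the apical surface of epithelial cells, carry dense O-linked sugars on a repeated extracellular stretch, and can signal through growth factor receptors. MUC5B and MUC5AC are secreted and assemble into the mucus gel. The trefoil factors TFF1, TFF2 and TFF3 are small secreted peptides that travel with these mucins and take part in epithelial repair. MUC1 is often raised in cholangiocarcinoma.

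The values were log2 intensities of 28869 rows per array, normalized by the authors. With 1 array per group, differences are sizes on the log2 scale with no error and no p-value unless limma is named, and the number of arrays limits their precision. Over all named genes the robust SD of the log2 differences was 0.147 for GEM_VPA over untreated and 0.158 for VPA over GEM, the closest pairs of arrays, and 0.253 to 0.270 for the other pairs. These values describe all genes and are not an error of a single gene, but differences of that size or less give no order of the arrays. The biliary and ductal markers that were measured (KRT7, KRT8, KRT18, KRT19, EPCAM, CDH1 and SOX9) were above the array median on all 4 arrays, 7 of 7. Endothelial markers were below it on all 4 arrays for 4 of 4 genes, fibroblast markers for 5 of 6, hepatocyte markers for 4 of 5 and leukocyte markers for 3 of 5. Leukocyte marker levels averaged 7.03 with GEM_VPA, 7.65 with VPA, 7.75 with GEM and 7.30 in untreated cells on the log2 scale, carried by LYZ and CD68, while PTPRC, the pan-leukocyte marker, stayed between 5.21 and 5.34. Their part in the results below was not tested.

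MUC1 and MUC13, the members with the widest range over the arrays, are shown by the 250 bases before a RefSeq start site in GRCh38.p14, on the minus strand, written 5′ to 3′. The MUC1 window is chr1:155192916-155193165 and the MUC13 window chr3:124934752-124935001. Capitals mark matches on either strand to any of 7 motifs searched. These were TATAAA, known as the box bound by the basal machinery, then CCAAT for the factor NF-Y and GGGCGG for the Sp family. The others were TGACTCA for the AP-1 family, AGATAA for GATA factors, TGTTTAC for forkhead factors and the palindromic oestrogen response element.

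MUC1: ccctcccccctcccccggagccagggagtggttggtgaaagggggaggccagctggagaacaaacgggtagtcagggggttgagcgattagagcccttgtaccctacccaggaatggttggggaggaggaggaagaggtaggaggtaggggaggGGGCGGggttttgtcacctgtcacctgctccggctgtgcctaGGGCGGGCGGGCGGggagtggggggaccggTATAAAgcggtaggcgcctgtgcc
MUC13: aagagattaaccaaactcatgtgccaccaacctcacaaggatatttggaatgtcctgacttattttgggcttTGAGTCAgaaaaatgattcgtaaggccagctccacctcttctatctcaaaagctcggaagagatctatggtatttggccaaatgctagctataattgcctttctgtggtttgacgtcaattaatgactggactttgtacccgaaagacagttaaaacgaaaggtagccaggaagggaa

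The MUC1 window holds the TATAAA box 24 bases before the start and 4 copies of GGGCGG, of which 3 overlap. RefSeq gives MUC1 another start site, from which the same box begins 30 bases before the start. TATAAA is in 10.7% and GGGCGG in 42.6% of the 35116 promoter windows of this length. The MUC13 window holds neither, and its single match is an AP-1 motif on the opposite strand 178 bases before the start, a motif found in 4.20% of windows. A match is a run of letters and no measured binding. Promoter windows were at hand for 4 of the 9 members.

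MUC1, the membrane mucin also known as the CA 15-3 antigen, had the widest range of the members over the 4 arrays, at 0.67. MUC1 did not have the widest difference for GEM_VPA over untreated or for VPA over GEM. Its level was 7.85 with GEM_VPA, 8.45 with VPA, 8.52 with GEM and 7.97 in untreated cells. The single-drug arrays were thus both higher than the combination and untreated arrays, and MUC1 was the only member at or above the array median on any array. In these bulk samples, fewer cells with a transcript and less transcript per cell cannot be told apart. MUC1 was 1.40-fold higher with VPA and 1.46-fold higher with GEM than in untreated cells. The combination array was 1.59-fold lower than GEM and 1.52-fold lower than VPA. On all of these ratios MUC1 stayed under 2-fold. Of all genes, 15.1% had a range over the 4 arrays at least as wide as that of MUC1. The share of genes at or above its ratio was 6.71% for VPA and 4.67% for GEM over untreated. The share at or below its ratio was 3.49% for GEM_VPA over GEM, 3.97% for GEM_VPA over VPA and 26.1% for GEM_VPA over untreated.

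MUC13, a membrane mucin of gut and pancreatic epithelium, had a level of 5.65 with GEM_VPA, 6.20 with VPA, 6.04 with GEM and 5.85 in untreated cells. It lay at percentile 13.4 to 20.9 of all rows, where the normalization compresses values and signal above background is not shown. The combination array was 1.46-fold lower than VPA and 1.31-fold lower than GEM. MUC13 was 1.27-fold higher with VPA than in untreated cells, and its GEM over untreated log2 ratio of 0.19 was within the 0.261 robust SD of all genes in that comparison.

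MUC16, the membrane mucin that carries the CA125 antigen, was at 7.06 with GEM_VPA, 7.41 with VPA, 7.41 with GEM and 7.27 in untreated cells. Its combination array was lowest, with log2 ratios of -0.35 over GEM, -0.35 over VPA and -0.21 over untreated. MUC4, a membrane mucin that binds ERBB2, was between 7.22 on the GEM_VPA array and 7.41 on the GEM array. MUC20, a membrane mucin that associates with the MET receptor, ranged over 0.09, from 7.62 with GEM_VPA to 7.71 with GEM. MUC20 has a pseudogene copy, so its row is uncertain for the single gene. MUC5B, the secreted mucin that was measured, was at 7.51 with GEM_VPA, 7.55 with VPA, 7.66 with GEM and 7.55 in untreated cells, so the arrays did not separate beyond 0.15.

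Among the trefoil factors, which lie together on chromosome 21, TFF1, an oestrogen-responsive peptide of gastric mucosa, was at 7.55 with GEM_VPA, 7.78 with VPA, 7.70 with GEM and 7.48 in untreated cells. Its VPA over untreated log2 ratio was 0.29, close to the 0.264 robust SD of all genes, and it was 0.25 after renewed quantile normalization and 0.24 after median centring. The GEM ratio was 0.21. TFF2, the spasmolytic polypeptide with a pair of trefoil domains, ranged over 0.03 across the 4 arrays, from 7.82 to 7.85. TFF3, the intestinal trefoil factor of goblet cells, was at 7.22 with GEM_VPA, 7.40 with VPA, 7.32 with GEM and 7.33 in untreated cells. No trefoil factor was as high as the array median on any array.

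**Figure D1:**
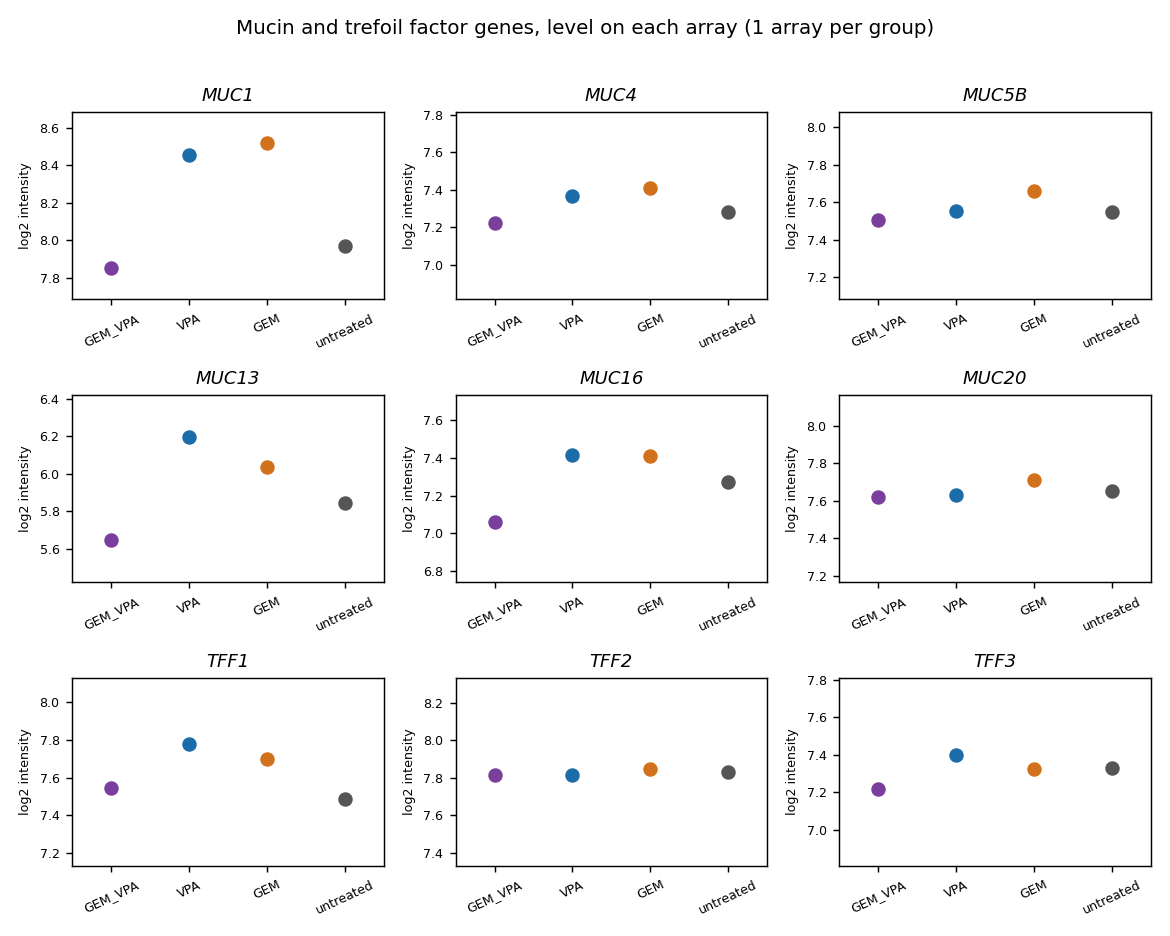
Level of each measured member (log2 intensity, vertical axis, each panel 1 log2 unit tall and centred on its own range) on the arrays labelled GEM_VPA, VPA, GEM and untreated, 1 point per array. MUC1 is high on the VPA (8.45) and GEM (8.52) arrays, MUC13 and MUC16 are lowest on the GEM_VPA array, and TFF2 spans 0.03.

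The comparisons asked how each drug and the combination differed from no drug, and the combination from each drug. A gene was counted as different when its ratio was at least 2-fold, the submitters' limit, and the array with the higher value had it no lower than the median of all rows. MUC1 was the only one of the 9 members that could pass the level part of the rule. For VPA over untreated, 0 of 9 members differed 2-fold, against 4% of the 11611 genes at level and 2.66% of all genes without the level part. For GEM over untreated, 0 of 9 did, against 4.49% and 2.95%. For GEM_VPA over untreated, 0 of 9 did, against 0.148% and 0.109%. The combination thus showed no 2-fold member where few genes on the arrays reached that size. For GEM_VPA over GEM the count was 0 of 9, against 5.38% and 3.59%, and for GEM_VPA over VPA it was 0 of 9, against 3.16% and 2.07%. For VPA over GEM it was 0 of 9, against 0.305% and 0.207%. At these shares a count of 0 among 9 genes is near the background.

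The median log2 ratio of the members was 0.08 for VPA and 0.13 for GEM over untreated, beside -0.01 for all genes in both. It was -0.06 for GEM_VPA over untreated (all genes -0.03), -0.15 for GEM_VPA over GEM (all genes -0.02) and -0.18 for GEM_VPA over VPA (all genes -0.01). These comparisons share arrays, so their values are not independent of each other. Both single-drug arrays lay above both other arrays for 6 of 9 members (MUC1, MUC4, MUC5B, MUC13, MUC16 and TFF1), a pattern held by 30.6% of all genes, and below both for 0 of 9, held by 30.6% of all genes. The gap between the lower single-drug array and the higher of the others was 0.48 for MUC1. It was 0.19 or less for the other 5, under the 0.253 to 0.270 robust SD of all genes, which is not an error of a single gene. For these 5 the split of single-drug arrays from both others is therefore not firm. Some single differences were larger. MUC13 was at -0.55 for GEM_VPA over VPA and -0.39 for GEM_VPA over GEM, and MUC16 was at -0.35 in both. For MUC5B the gap was 0.005, and it closed when the columns were quantile normalized again or the arrays were median centred. In MUC20, TFF2 and TFF3 the arrays overlapped.

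The departure from additivity was the GEM_VPA level minus GEM minus VPA plus untreated. It was -1.15 for MUC1, past 1 in size, and MUC1 was the only one of the 9 members at level. Of the 11797 genes at level, 20.4% were past 1 in either direction and 7.38% in the lower direction. Of all genes, 3.93% had a departure at or below that of MUC1. MUC13 was at -0.74, MUC16 at -0.49 and TFF1 at -0.44, and MUC4, MUC5B, MUC20, TFF2 and TFF3 were between -0.27 and -0.02. The robust SD of this quantity over all genes was 0.466. The MUC1 value was -1.09 after quantile normalization again and -1.05 after median centring of the arrays. The biliary marker genes had a median departure of -1.16. KRT7 at -4.17, CDH1 at -1.64, KRT19 at -1.25 and SOX9 at -1.16 were past 1 in size. KRT18 at -0.83 and KRT8 at -0.81 were short of it, and EPCAM at 0.35 was in the other direction. The related lists described below were mixed. Of 25 O-glycosylation enzymes at level, 3 were past 1 in the higher and 4 in the lower direction (list median -0.05). These counts were 0 and 3 of 12 mucin partners (-0.31) and 1 and 2 of 17 transcription regulators (-0.04). They were 0 and 1 of 4 other mucins (-0.04) and 1 and 0 of 5 goblet genes (-0.14).

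**Figure D2:**
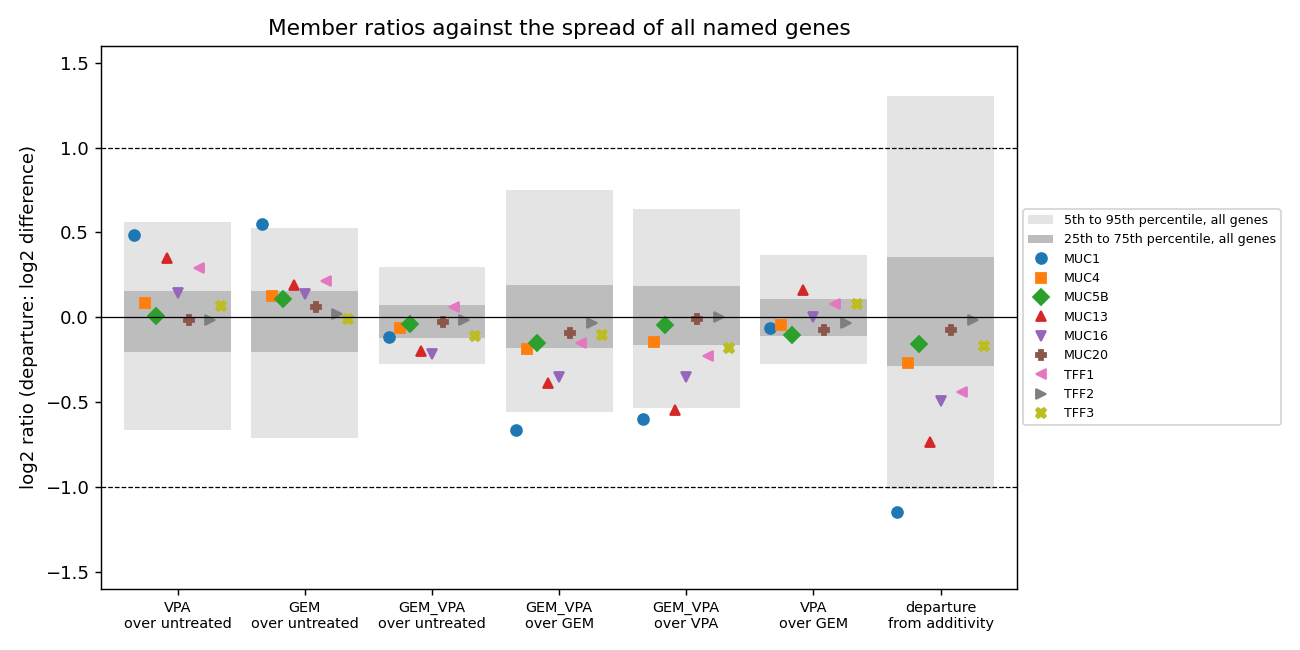
Log2 ratio of each member (vertical axis; the last column is the departure from additivity) in 6 comparisons of 2 arrays, with 1 coloured symbol per gene, over grey bands for all named genes (5th to 95th and 25th to 75th percentile). Dashed lines mark 2-fold, which no member reaches in a comparison of 2 arrays; MUC1 reaches -1.15 in the departure.

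The effect of each drug, averaged over the pair of arrays without and the pair with the other drug, was fitted with limma (additive model, 1 residual degree of freedom per gene, 11797 genes). MUC1, the only member in the fit, had an average VPA effect of -0.09 ± 0.39 (moderated SE, adjusted p = 1.00, Benjamini-Hochberg) and an average GEM effect of -0.03 ± 0.39 (adjusted p = 1.00). In this limma fit 0% of genes passed an adjusted p of 0.05 for either drug, with 22 genes for VPA and 0 for GEM at an unadjusted p under 0.05. Array noise and the departure from additivity both enter the residual of this model. The MUC1 averages join differences of opposite sign. Its VPA log2 ratio was 0.48 without GEM and -0.67 with GEM, and its GEM log2 ratio was 0.55 without VPA and -0.60 with VPA. An average near 0 is therefore not a lack of difference on each side.

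Related genes were described from lists of the mucin pathway. Of 31 listed enzymes of mucin-type O-glycosylation, 29 were measured, and 2 were at least 2-fold higher with VPA, the same number with GEM, and 0 lower in either. Of these enzymes 25 were at level for VPA and 24 for GEM, and the shares of all genes at level past 2-fold were 4% and 4.49%, so the counts are not far from the background. GALNT5, which adds the first sugar to serine or threonine, was at 10.2 with GEM_VPA, 11.7 with VPA, 12.3 with GEM and 10.1 in untreated cells. This is 3.08-fold higher with VPA and 4.59-fold higher with GEM than untreated, and 4.05-fold lower with GEM_VPA than with GEM. ST6GALNAC2, a sialyltransferase that caps short O-glycans, was at 9.28 with GEM_VPA, 10.7 with VPA, 10.4 with GEM and 9.39 in untreated cells. GCNT3, which branches O-glycans, was 2.06-fold lower with GEM_VPA than with VPA. The list as a whole was near 0, with median log2 ratios over untreated of 0.03 (VPA) and 0.02 (GEM). In GEM_VPA over untreated, 0 of 29 differed 2-fold (24 at level), against 0.148% of all genes at level, so the count is near the background.

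Of 15 listed mucin partners and shedding proteases, 13 were measured and 12 were at level. MSLN, mesothelin, which binds MUC16, was at 9.07 with GEM_VPA, 10.1 with VPA, 10.3 with GEM and 9.27 in untreated cells. It was the only member of its list past 2-fold, 2.10-fold higher with GEM than untreated and 2.40-fold lower with GEM_VPA than with GEM. The shares of all genes at level past 2-fold were 4.49% and 5.38% in these comparisons, so 1 of 12 is not far from the background. Of 14 measured other mucins (16 listed), 4 were at level. MCAM, an adhesion molecule also called MUC18, was 2.66-fold higher with VPA than untreated, where 4% of all genes at level passed 2-fold. No other gene of that list passed in any comparison of 2 arrays, and those under the level filter could not pass. MUC2, MUC7, MUC15, MUC17 and MUC21 were below the array median on every array. The MUC3A, MUC12 and MUC17 genes are neighbours with related sequence, so their rows are uncertain for the single gene.

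Of 22 listed transcription regulators of mucin and trefoil genes, 19 were measured and 17 were at level. STAT3, the mediator of cytokine signals, was at 11.5 with GEM_VPA, 12.4 with VPA, 12.3 with GEM and 11.3 in untreated cells, 2.05-fold higher with VPA than untreated. NFKB1, an NF-kB subunit, was at 9.99 with GEM_VPA, 9.10 with VPA, 9.44 with GEM and 10.4 in untreated cells, 2.48-fold lower with VPA than untreated. ELF3, an epithelial ETS factor, was 2.04-fold lower with GEM_VPA than with GEM. The shares of all genes at level past 2-fold were 4% for VPA over untreated and 5.38% for GEM_VPA over GEM. ESR1, the oestrogen receptor, was between 6.66 and 6.84, below the array median on all arrays. Of 22 goblet and mucous secretory cell genes, all measured, 5 were at level, and the rest could not pass. The count past 2-fold was 0 in each comparison of 2 arrays, against 0.148% to 5.38% of all genes at level, so it is near the background. TSPAN8, one of those under the level filter, is described below. AGR2, a mucin-folding protein, was between 5.33 and 5.66, and SPDEF, a goblet cell factor, between 7.33 and 7.59, below the array median throughout. Of 8 listed trefoil receptors and partners, 6 were measured and 0 were at level.

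**Figure D3:**
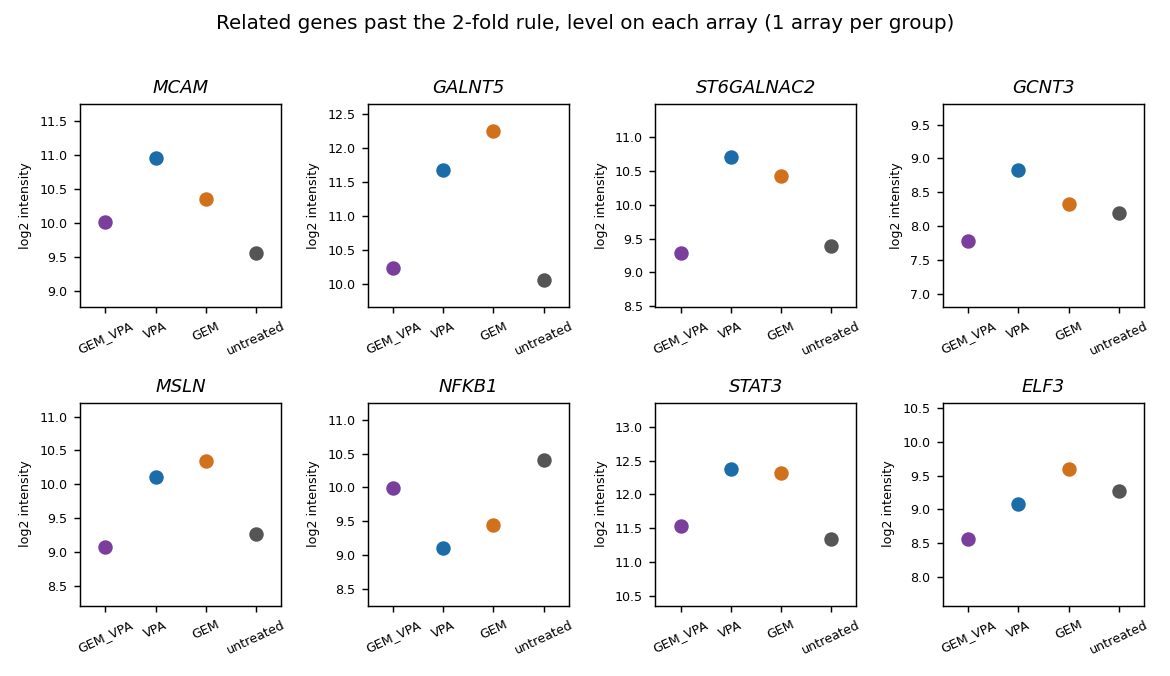
Level (log2 intensity, vertical axis, each panel 3 log2 units tall) of the related genes past 2-fold in at least 1 comparison of 2 arrays, on the arrays labelled GEM_VPA, VPA, GEM and untreated, 1 point per array. GALNT5, ST6GALNAC2, MSLN and STAT3 are high on the VPA and GEM arrays, and NFKB1 is low on them.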

How the data were processed

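The deposited table holds log2 intensities from Affymetrix Human Gene 1.0 ST arrays normalized by the authors. Per the labels, the software was GeneSpring GX 11.5, and the submitters' processing notes name RMA. RMA is meant to equalise the arrays' intensity distributions, and it compresses low values. The medians of all rows still differed slightly, at 7.87 with GEM_VPA, 7.92 with VPA, 7.91 with GEM and 7.87 in untreated cells. The genome build of the rows was not stated. Rows with 1 symbol in the platform annotation (19310 of 28869) were averaged per gene. All 9 measured members matched RefSeq by symbol and Entrez ID. Members and lists were chosen with earlier results of these data known. Named genes were all members, up to 4 genes per list past the 2-fold rule, and the 3 genes nearest in profile to any member with a range of at least 1 over the arrays; no member had that range. Genes named by level alone were chosen after their values were seen. Groups follow the labels, with 1 array each. The rules and the limma fit were tested on simulated data. The simulation of the rules changed only genes with mean levels above that of every member, so it does not show detection of changes in the members. The limma simulation held no departure from additivity, so it does not show the power of the fit on these arrays. Software was Python 3.11.15, numpy 2.4.6, pandas 2.3.3, matplotlib 3.10.9, R 4.3.3 and limma 3.58.1. Alternatives covered normalization, level filter, fold limit, row choice and the limma model.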

Additional observations from a re-analysis of the deposited data

Results flagged for a closer look

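For 8 of the 9 measured members the VPA or the GEM difference had opposite signs without and with the other drug, each side resting on 1 array per group, and this difference was not tested. The same held for 83.4% of all named genes, so this count is near the background. The departures from additivity of these members were -1.15 for MUC1, -0.74 for MUC13, -0.49 for MUC16, -0.44 for TFF1, -0.27 for MUC4, -0.17 for TFF3, -0.16 for MUC5B and -0.073 for MUC20 on the log2 scale. The last turned positive, to 0.01 after quantile normalization again and to 0.03 after median centring. Under either scaling, MUC5B and MUC20 had the same sign on both sides for each drug and left the count of opposite signs. TFF2 had opposite signs under either scaling and entered it.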

How the results depend on the processing

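No paired analysis was possible because each group has 1 array. With a 1.5-fold limit, 1 of 9 members (MUC1) differed in GEM_VPA over GEM and 1 in GEM_VPA over VPA. With a 3-fold limit, 0 members passed in the departure from additivity. The other counts of members past the rule were the same under renewed quantile normalization, median centring, no level filter, a 25th percentile filter, the other fold limits and another choice of row. Members with both single-drug arrays above both others numbered 5 under either scaling, an alternative chosen after seeing the data. MUC1 stayed between 0.43 and 0.48 for VPA and between 0.51 and 0.55 for GEM over untreated under the scaling and row choices. MUC5B, MUC20, TFF2 and, under centring, MUC16 changed sign in at least 1 comparison, always from sizes under 0.1. Limma passed 0 genes for either drug under all 6 alternatives. Signal over background was not used here, so low rows have no shown detection.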

Other observations

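Genes picked after their values were seen, all under the level filter, showed wider differences than the members. TSPAN8, a tetraspanin of gut and pancreatic epithelium from the mucous secretory list, was at 6.18 with GEM_VPA, 7.27 with VPA, 6.82 with GEM and 5.45 in untreated cells, so that its log2 ratio over untreated was 1.83 (VPA) and 1.37 (GEM). MUC19, a gel-forming mucin, was at 6.49 with GEM_VPA, 7.13 with VPA, 7.30 with GEM and 6.40 in untreated cells. SYTL2, a vesicle-docking protein, was at 6.89 with GEM_VPA, 7.49 with VPA, 7.49 with GEM and 6.71 in untreated cells. At level, KLF4, a goblet cell transcription factor, had log2 ratios over untreated of -0.68 (VPA) and -0.63 (GEM).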
